A study of Mus musculus with 9 samples.

Results

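EZH2 peaks that did not overlap N-MYC, p300 or the Polycomb marks were described in MYCN-driven T-cell lymphoma from the thymus of the mouse strain C57BL/6J. They were chosen by overlap: a peak of the EZH2 list on the 19 autosomes, X or Y was kept when it shared no base with any N-MYC, p300, SUZ12 or H3K27me3 peak. The rule left 1005 of 18730 EZH2 peaks, or 5.37% of the list (95% Wilson interval 5.05 to 5.70%). Of the 8612 EZH2 peaks without SUZ12 or H3K27me3, they made up 11.7%. The absence of those 4 features is therefore a property of the selection and not a result. H3K4me3, H3K27ac, position relative to genes and gene content were not used by the rule. Peak width was not set by it either, but a wider peak has more bases that can touch an excluded peak. Width is therefore not independent of the selection.

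The series held 9 samples of the same labelled cells: 7 immunoprecipitations, against EZH2, SUZ12, H3K27me3, N-MYC, p300, H3K4me3 and H3K27ac, and 2 inputs. Each antibody had 1 library, and all samples carried the same strain, tissue and cell label, so lists are compared without replicates and without p-values. ChIPmentation was used, in which a transposase adds sequencing adapters to chromatin while it is held on the antibody. The labels do not give the transgene, its promoter, the age of the animals, or whether the 7 libraries came from the same tumour. The values are the authors' peak calls, and every enrichment below is the authors' linear fold over background. Read depth is not stated, and the Wilson intervals describe counting over peaks only, which are not independent replicates. The tissue label was read against marker genes: all 7 T-cell genes with an annotated start, Cd3e and Tcf7 among them, had H3K4me3, H3K27ac and p300 within 1000 bp. H3K4me3 stood at 1 of 3 B-cell, 0 of 2 myeloid and 1 of 4 thymic epithelial genes. H3K27ac separated them less, at 1 of 3, 1 of 2 and 2 of 4, and p300 stood at 0 of each.

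EZH2 is the catalytic subunit of Polycomb repressive complex 2, which methylates lysine 27 of histone H3 together with its partner SUZ12 and is known for silencing developmental genes. H3K4me3 marks active promoters, and H3K27ac, which p300 can deposit, marks active promoters and enhancers. N-MYC binds DNA with MAX, preferentially at the E-box CACGTG, and MYC proteins are known for driving genes of ribosome production and growth. The title of the series concerns EZH2 acting as an activator with MYCN, so EZH2 peaks that had neither Polycomb marks nor a called N-MYC or p300 peak are those that neither of these settings covers.

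Strong examples at gene starts are shown by the letters of their promoters, which illustrate the sites and are no test of a difference from other classes. Each line gives the 250 bases before the RefSeq start (assembly GRCm38.p6), 5′ to 3′ on the strand of the gene, with matches to any of 11 motifs in capitals. At all 5 genes the EZH2 peak touched the start, both active marks were present, the whole H3K4me3 peak held none of the 4 excluded features, and no gene body reached the printed bases.
Pex14, chr4:149099844-149100093, minus strand: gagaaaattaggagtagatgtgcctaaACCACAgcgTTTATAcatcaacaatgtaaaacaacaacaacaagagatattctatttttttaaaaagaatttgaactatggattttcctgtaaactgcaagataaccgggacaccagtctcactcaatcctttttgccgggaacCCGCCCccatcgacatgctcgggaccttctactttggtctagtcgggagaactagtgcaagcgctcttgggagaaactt
Med4, chr14:73509799-73510048, plus strand: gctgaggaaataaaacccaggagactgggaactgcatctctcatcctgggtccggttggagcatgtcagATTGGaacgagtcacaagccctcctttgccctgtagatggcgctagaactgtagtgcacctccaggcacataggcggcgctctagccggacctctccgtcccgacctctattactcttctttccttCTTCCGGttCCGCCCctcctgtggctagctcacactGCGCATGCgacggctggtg
Gfm1, chr3:67429865-67430114, plus strand: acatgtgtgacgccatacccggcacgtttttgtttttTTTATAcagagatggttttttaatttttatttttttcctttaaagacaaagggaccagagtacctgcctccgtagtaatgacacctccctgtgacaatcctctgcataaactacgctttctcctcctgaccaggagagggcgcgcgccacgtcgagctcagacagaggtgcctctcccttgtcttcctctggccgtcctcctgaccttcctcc
Ndufc1, chr3:51408956-51409205, minus strand: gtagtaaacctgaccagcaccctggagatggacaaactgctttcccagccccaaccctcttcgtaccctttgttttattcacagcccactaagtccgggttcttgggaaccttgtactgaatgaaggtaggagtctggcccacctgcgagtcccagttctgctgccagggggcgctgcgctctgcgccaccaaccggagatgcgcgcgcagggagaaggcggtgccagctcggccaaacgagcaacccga
Sucla2, chr14:73552536-73552785, plus strand: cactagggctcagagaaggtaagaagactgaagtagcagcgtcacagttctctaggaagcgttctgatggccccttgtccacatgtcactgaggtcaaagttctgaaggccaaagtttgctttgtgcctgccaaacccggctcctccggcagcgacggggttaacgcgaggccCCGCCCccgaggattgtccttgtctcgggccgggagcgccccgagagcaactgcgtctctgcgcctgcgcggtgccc

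Pex14 encodes a docking protein for import into peroxisomes and had EZH2 at 8.42-fold and H3K4me3 at 46.2-fold. Med4, a subunit of Mediator, had EZH2 at 8.18-fold, and its promoter held an NFY, an ETS, a GC box and an NRF1 match, the last of them starting 19 bases before the start. Gfm1, the mitochondrial elongation factor G, had EZH2 at 7.02-fold and a TATA match far upstream. Ndufc1, a subunit of respiratory complex I, had EZH2 at 6.76-fold and no match to any motif searched. Sucla2, a subunit of succinyl-CoA ligase in the citric acid cycle, had EZH2 at 6.56-fold and a GC box.

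To show the E-box in its context, the next lines give 3 promoters picked because they hold it: Klf6, the selected gene of highest EZH2 enrichment whose 250 bases held CACGTG and no gene body, followed by Eif4a1 and Nop2 from the list of ribosome biogenesis and MYC target genes, the 2 of highest EZH2 enrichment by the same rule at which EZH2 lay together with N-MYC and p300.
Klf6, chr13:5861239-5861488, plus strand: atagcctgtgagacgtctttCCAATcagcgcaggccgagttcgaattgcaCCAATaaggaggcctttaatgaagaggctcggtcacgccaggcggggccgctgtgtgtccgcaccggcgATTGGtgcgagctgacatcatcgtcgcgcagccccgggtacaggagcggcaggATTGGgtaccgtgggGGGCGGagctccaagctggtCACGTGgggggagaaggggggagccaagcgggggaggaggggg
Eif4a1, chr11:69672424-69672673, minus strand: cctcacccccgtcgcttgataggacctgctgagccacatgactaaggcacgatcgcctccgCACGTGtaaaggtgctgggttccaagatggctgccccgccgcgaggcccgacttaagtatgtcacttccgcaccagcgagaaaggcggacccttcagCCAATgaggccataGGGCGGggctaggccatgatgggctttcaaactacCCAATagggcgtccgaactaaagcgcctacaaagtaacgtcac
Nop2, chr6:125131633-125131882, plus strand: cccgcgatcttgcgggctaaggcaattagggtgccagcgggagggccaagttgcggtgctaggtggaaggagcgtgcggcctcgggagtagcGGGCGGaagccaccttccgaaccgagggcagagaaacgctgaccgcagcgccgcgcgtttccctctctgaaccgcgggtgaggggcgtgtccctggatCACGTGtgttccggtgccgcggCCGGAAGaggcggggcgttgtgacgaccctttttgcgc

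Klf6, a zinc finger transcription factor, had EZH2 at 6.03-fold and an E-box that began 43 bases before the start. Its nearest N-MYC peak lay 686021 bp away, and its H3K4me3 peak held an H3K27me3 peak elsewhere, 828 bp from the EZH2 peak. Eif4a1, the RNA helicase of translation initiation, had EZH2 at 11.4-fold and an E-box 189 bases before the start. Nop2, an rRNA methyltransferase of the nucleolus, had EZH2 at 5.37-fold and an E-box 60 bases before the start. In that list, 8 of 39 genes found only with N-MYC and p300 had CACGTG in these 250 bases. The share of other promoters over the same 250 bases is not given, so this count stands without a comparison.

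Most of the selected EZH2 peaks still lay in active chromatin. H3K4me3 overlapped 684 of 1005 (68.1%, interval 65.1 to 70.9%), against 52.7% of all EZH2 peaks. H3K27ac overlapped 686 of 1005 (68.3%, interval 65.3 to 71.1%), against 48.8% of all EZH2 peaks. The 2 marks came together: 648 peaks (64.5%) had both, 36 had H3K4me3 alone and 38 had H3K27ac alone. The remaining 283 peaks (28.2%, interval 25.5 to 31.0%) had neither. The background of all EZH2 peaks includes 10118 that overlapped SUZ12 or H3K27me3. Among Polycomb-free EZH2 peaks, the share without either mark was 0.111% of the 5422 with N-MYC and p300, 0.156% of the 1922 with p300 alone and 2.28% of the 263 with N-MYC alone.

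**Figure D1:**
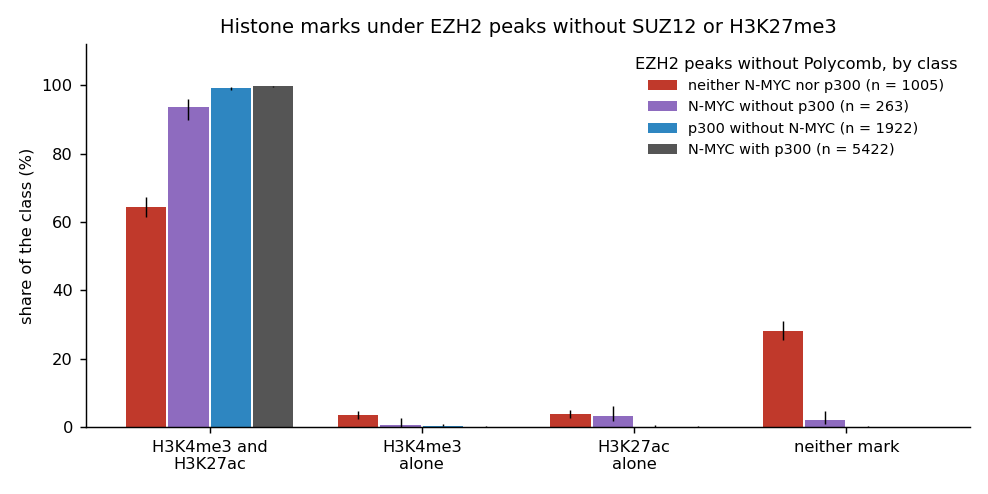
Share (%) of each class of Polycomb-free EZH2 peaks that overlapped H3K4me3 with H3K27ac, H3K4me3 alone, H3K27ac alone or neither mark; bars are shares and whiskers 95% Wilson intervals. Peaks without N-MYC and p300 had both marks in 64.5% and neither in 28.2%, while the other 3 classes had both marks in over 90%.

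The selected peaks were narrow and low. Their median width was 297 bp (range 200 to 1233, middle 50% from 231 to 419 bp), against 693 bp with N-MYC and p300, 425 bp with p300 alone and 377 bp with N-MYC alone. Width under 300 bp was seen in 50.7% of them and in 12.1% of the peaks with N-MYC and p300, and 7 of 1005 were wider than 1000 bp. Median EZH2 enrichment was 4.36-fold (range 2.09 to 9.60) against 5.70, 4.83 and 4.64-fold in the same 3 classes. An enrichment of 6-fold or more was reached by 76 of the 1005, or 7.56%, and by 44.6% of the peaks with N-MYC and p300. The widths and heights of the classes overlapped over most of their range. When only the EZH2 summit had to lie outside the excluded peaks, the medians were 386 bp and 4.64-fold over 2062 peaks. The part of the rule of no shared base in the narrow widths was not tested.

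**Figure D2:**
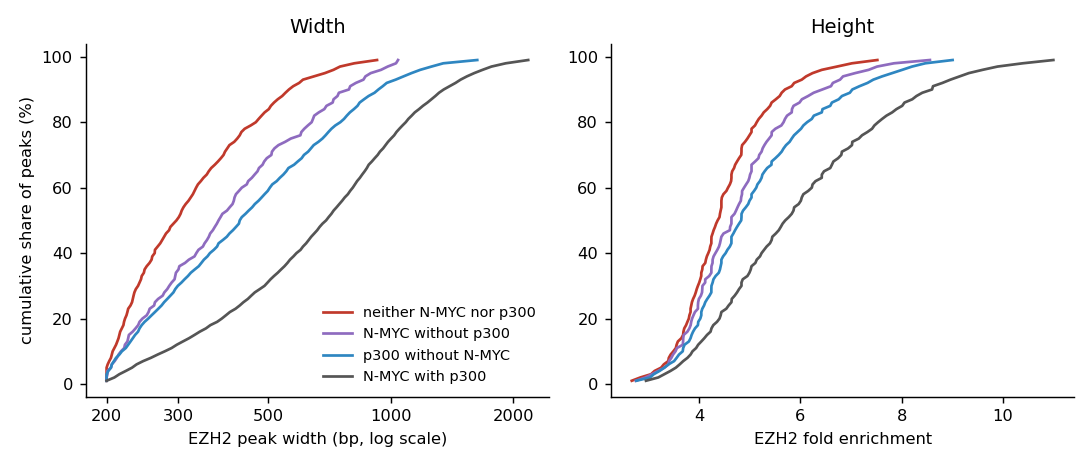
Cumulative share (%) of EZH2 peaks by width (bp, log scale, left) and by EZH2 fold enrichment (right) for the 4 Polycomb-free classes, drawn from percentile 1 to 99. The curve for peaks without N-MYC and p300 lies farthest to the left in both panels, with medians of 297 bp and 4.36-fold.

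Where they were present, the marks under the selected peaks were also lower than in the 2 classes with p300. The overlapping H3K4me3 peak had a median of 25.7-fold, against 32.1-fold with N-MYC and p300, 30.6-fold with p300 alone and 24.7-fold with N-MYC alone. H3K27ac had a median of 10.05-fold against 16.3, 13.9 and 10.3-fold. For both marks the selected peaks and those with N-MYC alone were thus close, and the 2 classes with p300 were higher. H3K4me3 peaks without H3K27ac at the EZH2 peak were weaker, at a median of 13.2-fold over the 36 peaks, and H3K27ac peaks without H3K4me3 stood at 5.69-fold over 38.

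Of the 76 selected peaks at 6-fold or more, 69 had both marks, the other 7 had neither, and 47 were within 1000 bp of a protein-coding start. Spg20, which encodes the endosomal and lipid droplet protein spartin, was first at 9.60-fold, with H3K4me3 at 35.2-fold and H3K27ac at 16.3-fold. A p300 peak lay 121 bp from it. Kansl1, a scaffold of the NSL acetyltransferase complex, followed at 9.23-fold, with p300 68 bp away. Nae1, a subunit of the enzyme that activates NEDD8, had EZH2 at 8.598-fold on a 985-bp peak, and both N-MYC and p300 lay 56254 bp away. Mkrn1, a RING ubiquitin ligase, had EZH2 at 8.42-fold over 1232 bp, and its nearest p300 peak was 37804 bp distant. The first 2 thus sat beside p300 on the same H3K4me3 peak, and Nae1, Pex14, Mkrn1 and Med4 did not.

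The rule reads only the EZH2 peak itself, so the whole H3K4me3 peak around each was read as well. On the 652 H3K4me3 peaks involved, 30 of which carried 2 or 3 selected peaks, 3 arrangements were found. For 311 of 684 selected peaks (45.5%, interval 41.8 to 49.2%) an N-MYC or p300 peak lay elsewhere on the same H3K4me3 peak, p300 in 280 cases and N-MYC in 178. For 63 there was SUZ12 or H3K27me3 elsewhere and no N-MYC or p300. For 310 (45.3%) the H3K4me3 peak held none of the 4, and these are called isolated below. Requiring the EZH2 summit to lie inside the other peak selected 2062 peaks. Of those with H3K4me3, 76.4% had N-MYC or p300 on the H3K4me3 peak. This count includes N-MYC or p300 peaks that touch the EZH2 peak away from its summit, so it is not comparable with 45.5%. Removing peaks within 500 bp of an excluded feature left 580 peaks. Of those with H3K4me3, 9.14% had N-MYC or p300 elsewhere on the H3K4me3 peak.

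Selected peaks that shared their H3K4me3 peak with N-MYC or p300 lay close to it, at a median of 120 bp. They were 266 bp wide and 4.26-fold enriched at the median, on H3K4me3 peaks of 2982 bp. Another EZH2 peak lay on the same H3K4me3 peak in 168 of the 311 (54.0%). The strongest other EZH2 peak there was higher than the selected peak in 127 of those 168. Over all 168, the medians were 5.14-fold for the strongest other peak and 4.24-fold for the selected peak. Where several other EZH2 peaks were present the highest was taken, which favours it. Ccz1, part of the exchange factor for Rab7, had EZH2 at 5.63-fold 1 bp from a p300 peak. Gadd45g, a stress response gene, and Selenoo, a mitochondrial selenoprotein, had p300 at 2 bp.

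The 310 selected peaks whose H3K4me3 peak held none of the 4 features were larger. Median EZH2 width was 390.5 bp and enrichment 4.64-fold, on 293 H3K4me3 peaks of 2097 bp and 26.1-fold. The EZH2 and H3K4me3 summits were 110 bp apart at the median, the nearest N-MYC or p300 peak was 29896.5 bp away, and 97.4% had H3K27ac. Another EZH2 peak lay on the same H3K4me3 peak in 34 of them (11.0%). The H3K4me3 height was near that of peaks with a factor elsewhere (27.6-fold), and the H3K4me3 peak was narrower.

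At like EZH2 height, the isolated peaks had less H3K27ac than peaks with p300. Between 4 and 5-fold EZH2, 126 isolated peaks with both marks had a median H3K27ac of 9.53-fold, against 15.1-fold at 1198 peaks with N-MYC and p300 and 13.8-fold at 692 with p300 alone. Between 5 and 6-fold EZH2, the medians were 10.9, 15.5 and 13.9-fold. At 6-fold EZH2 or more, they were 11.9, 17.99 and 14.7-fold. That upper band ran to 14-fold, so EZH2 height was not matched within it, and median EZH2 widths there were 603, 947.5 and 793 bp. H3K4me3 differed less in the upper range, with 32.9-fold at the 46 isolated peaks and 36.4-fold at the 2414 with N-MYC and p300.

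The presence of EZH2 on an H3K4me3 peak without N-MYC, p300 or Polycomb features went with the strength of H3K4me3. Polycomb-free H3K4me3 peaks were divided by fold enrichment into 5 groups of equal size. Among those without N-MYC or p300, EZH2 was called at 6 of 2626 in the lowest group (0.228%), then at 1.12, 12.6 and 61.8%, and at 55 of 56 (98.2%, interval 90.6 to 99.7%) in the highest group. With N-MYC or p300 the shares were 3.82, 7.05, 42.7, 85.1 and 99.2%. The intervals overlapped only in the highest group. Width differed as well as strength. The 5315 H3K4me3 peaks without EZH2 and the 4 features had medians of 368 bp and 4.54-fold. The 293 that held an isolated peak had 2097 bp and 26.1-fold. The part of width in these shares was not tested. Across peaks, EZH2 and H3K4me3 enrichment had a Spearman coefficient of 0.32 over the 684 selected peaks with H3K4me3, 0.49 over the 310 isolated ones and 0.56 over 5408 with N-MYC and p300. All points of a coefficient come from the same EZH2 and H3K4me3 libraries, so it describes these lists only.

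**Figure D3:**
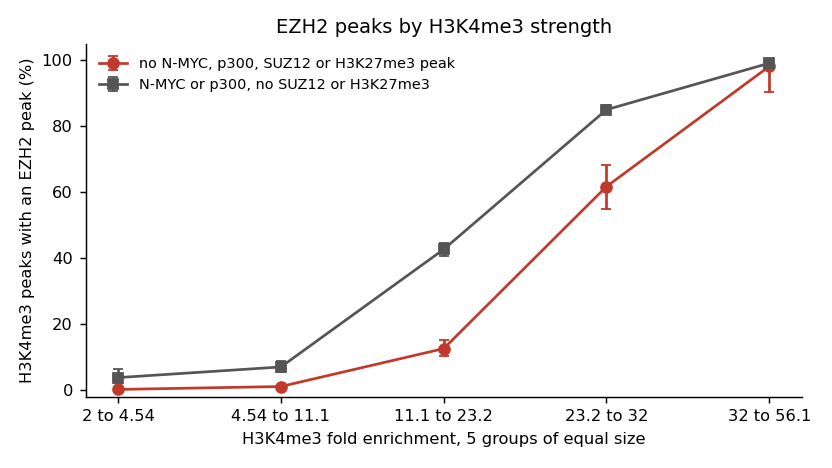
Share (%) of Polycomb-free H3K4me3 peaks that overlapped an EZH2 peak, in 5 equal groups of rising H3K4me3 fold enrichment, for peaks with N-MYC or p300 (squares) and with neither (circles); whiskers are 95% Wilson intervals. Without N-MYC or p300 the share ran from 0.228% in the lowest group to 98.2% in the highest.

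Gene starts lay near fewer of the selected peaks than of the other classes. Of the 977 on the 20 chromosomes with annotated starts in the table used, 448 (45.9%, interval 42.8 to 49.0%) lay within 1000 bp of a protein-coding start. The shares were 80.3% with N-MYC and p300, 73.7% with p300 alone and 69.2% with N-MYC alone. A start fell inside the EZH2 peak in 11.7% of the selected peaks and in 45.7% of those with N-MYC and p300. The share within 1000 bp was 66.5% with both marks, 45.7% with H3K4me3 alone, 8.11% with H3K27ac alone and 4.32% with neither. For the selected peaks near a start, the summit was read only at the 433 with H3K4me3. It was downstream of the start in 84.5% of these, at a median of 271 bp into the gene. In the other classes, all peaks near a start were read, with or without H3K4me3. Their values were 83.9% and 268 bp with N-MYC and p300, 84.5% and 272 bp with p300 alone, and 80.6% and 200 bp with N-MYC alone. For the isolated promoters this share was 90.4%, with a median of 237 bp.

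The selected peaks near starts belonged to 459 protein-coding genes, of which 323 had no EZH2 peak of another class within 1000 bp. Of the 459, 199 were isolated promoters and 212 had N-MYC or p300 elsewhere on the H3K4me3 peak. Such counts within single lists below are small and were not tested against these. Genes were read against 19 lists. Among all 17491 protein-coding genes with a start, 2.62% had a selected peak and 24.4% had an EZH2 peak with N-MYC and p300.

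The cytosolic ribosomal protein, ribosome biogenesis and proteasome lists had no selected peak, but at the 2.62% of all genes few or none would be counted in lists of this size, so the zeros say nothing particular about them. None of 64 cytosolic ribosomal protein genes had a selected peak, and 55 had EZH2 with N-MYC and p300. Among 49 ribosome biogenesis and MYC target genes the counts were 0 and 45, and among 33 proteasome genes 0 and 18. The same limit holds for the developmental and other cell type lists: none of 27 developmental Polycomb targets and none of 9 B-cell, myeloid and thymic epithelial genes had a selected peak. Splicing factors had 2 of 68, Snrnp70 and Srsf4, both with N-MYC or p300 elsewhere on the same H3K4me3 peak.

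Genes of the respiratory chain and ATP synthase were present, with 7 of 78 (8.97%). The highest was Ndufc1, followed by Uqcrc1, a core subunit of complex III, at 6.30-fold. Ndufb6 and Ndufa9, subunits of complex I, had 6.24 and 5.63-fold. All 4 were isolated promoters, with H3K4me3 between 30.8-fold at Ndufc1 and 40.7-fold at Uqcrc1. The others, Ndufb10, Atp5h and Cox6a1, had N-MYC or p300 elsewhere on their H3K4me3 peak. In the same list 34 genes had EZH2 with N-MYC and p300. Mitochondrial ribosomal proteins had 3 of 69, Mrpl3 at 5.15-fold, Mrpl28 at 3.85-fold and Mrps25 at 3.43-fold, all isolated.

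Autophagy and lysosome genes had 6 of 50. Atg4d, a protease that processes ATG8 proteins, was at 5.76-fold with H3K27ac at 6.21-fold. Atg14, a subunit of the autophagy lipid kinase complex, was at 4.76-fold, and Tfeb, a transcription factor of lysosomal genes, at 4.71-fold. These 3 and Optn, an autophagy receptor, were isolated promoters. The peak at Atg3, at 4.84-fold, lay 265 bp from the start of Slc35a5 and within 1000 bp of both genes, so it cannot be given to either, and Wipi1 had the lowest EZH2 enrichment of the list, 4.29-fold.

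Zinc finger genes gave the largest group by number, 25 of 387 (6.46%). Of these 25, 17 were isolated promoters and 23 had no EZH2 peak of another class, beside 199 and 323 of all 459 genes. Zbtb26 was at 6.24-fold, Zfp672 at 6.06-fold, Zbtb33, which encodes the methyl-CpG-binding protein Kaiso, at 6.03-fold and Zbtb4 at 5.86-fold. DNA repair genes had 4 of 61. The excision repair nuclease gene Ercc5 was at 3.97-fold, and the Fanconi anaemia genes Fance and Fancg stood at 3.46 and 3.19-fold, these 3 all isolated.

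Chromatin regulators had 5 of 76, of which 4 had N-MYC or p300 elsewhere on the H3K4me3 peak, beside 212 of all 459 genes. Kdm5c, an H3K4 demethylase, was highest at 7.41-fold, with p300 at 13 bp. Hdac2, a class I histone deacetylase, was at 6.11-fold with N-MYC at 227 bp, and Suv39h1, an H3K9 methyltransferase, at 4.44-fold with N-MYC at 6 bp. Hdac5, a class IIa deacetylase, was at 6.25-fold and isolated. T-cell signalling genes had 4 of 54. Lck, the kinase of the T-cell receptor pathway, was at 4.73-fold with p300 at 409 bp and H3K4me3 at 13.9-fold. Ubash3a, a suppressor of receptor signalling, was at 3.77-fold, and Zbtb7b, the CD4 lineage factor, at 3.56-fold on a 13687-bp H3K4me3 peak that held p300. The peak at Ikbkg, which encodes NEMO of the NF-kappaB pathway, was also at the start of G6pdx, at 4.44-fold.

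Solute carriers had 12 of 290 (4.14%), against 2.62% of all genes. The strongest of these peaks, at 5.85-fold, was within 1000 bp of Slc9a5 but covered the start of its neighbour Fhod1, so it cannot be given to either. The mitochondrial dicarboxylate carrier Slc25a10 was at 5.37-fold, Slc12a4 at 5.18-fold and Slc37a1 at 5.03-fold. Ubiquitin ligases and proteases had 8 of 221 (3.62%), with Ube2a at 5.69-fold, Usp21 at 5.27-fold, Usp11 at 4.64-fold and Trim56 at 4.56-fold. Tmem genes had 2 of 191, Tmem221 at 4.48-fold and Tmem217, whose peak lay in the body of Tbc1d22b, 49 bp from the start of that gene, and cannot be given to either. A single gene was found among 71 vesicle traffic genes (Sec22b, 4.16-fold), 65 cell cycle genes (Orc6, 4.24-fold) and 96 histone genes (H4c11, 4.44-fold).

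The promoter letters of the 323 genes with a selected peak only were compared with those of genes found in 1 other class only, over 300 bases from 250 before to 50 after the start. CACGTG was present on either strand in 5.26% (interval 3.31 to 8.27%), against 12.4% (11.4 to 13.4%) with N-MYC and p300, 8.58% with p300 alone, 10.9% with N-MYC alone and 7.90% of all protein-coding promoters. The CRE TGACGTCA was in 5 of 323 (1.55%, interval 0.66 to 3.57%), against 4.34% with N-MYC and p300 and 2.34% of all. The last value lies inside that interval. The ETS letters CCGGAAG were in 19.8%, below 30.0% with p300 alone and above 11.9% of all. The YY1 letters AAGATGGCG were in 6.19% (interval 4.04 to 9.37%), against 4.68% with N-MYC and p300, inside that interval, and 1.94% of all. TATAAA was in 6.50%, against 13.3% of all. Matches of different motifs may share bases. A match describes these letters and does not show binding.

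**Figure D4:**
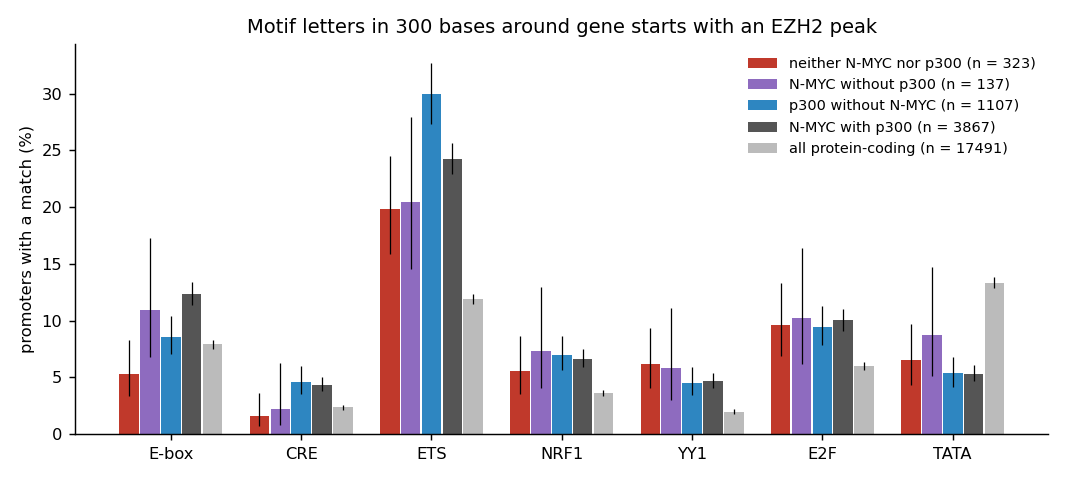
Share (%) of protein-coding promoters (300 bases) with at least 1 match to each motif on either strand, for genes with an EZH2 peak of only 1 class and for all protein-coding genes; whiskers are 95% Wilson intervals. CACGTG was in 5.26% of promoters of genes whose EZH2 peaks overlapped neither N-MYC nor p300, and in 12.4% where they overlapped both.

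Base composition differed in the same comparison. Observed over expected CpG, the number of CG pairs relative to that from the C and G content, had a median of 0.71 in the 323 promoters, 0.87 with N-MYC and p300, 0.79 with p300 alone, 0.82 with N-MYC alone and 0.58 over all. GC content was 60.3, 64.3, 59.0, 62.7 and 56.3% in the same order. Motifs with CG in them, among them CACGTG and TGACGTCA, can follow this difference, and its part in their shares was not tested.

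GC boxes, GGGCGG, were in 64.4% of the 323 promoters (interval 59.0 to 69.4%) and 73.2% of those with N-MYC and p300 (71.8 to 74.6%). NRF1 letters, GCGCATGC, were in 5.57% and 6.65%, E2F letters, TTCCCGC, in 9.60% and 10.01%, NFY letters, CCAAT, in 39.0% and 36.4% (24.1% with N-MYC alone), RUNX letters, TGTGGT, in 12.1% and 10.4%, and ZNF143 letters, ACTACAA, in 5.88% and 4.53%.

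The 283 selected peaks without H3K4me3 and H3K27ac differed in surroundings from those with both marks. The 283 had a median width of 262 bp and EZH2 enrichment of 4.21-fold. Of them, 33.9% lay in the body of a protein-coding gene, against 87.0% of those with both marks. H3K27me3 was called within 2000 bp of 143 (50.5%), against 17.0% with both marks. The H3K27me3 list has 123056 peaks, and the share of random positions this near to it was not computed. SUZ12 lay within that distance of 12.4%, H3K27ac of 26.5%, and N-MYC or p300 of 5.65%. For the 143, the nearest H3K27me3 peak had a median of 5.06-fold and 761 bp, against 4.20-fold and 382 bp over the whole H3K27me3 list. No peak of any of the other 6 lists lay within 2000 bp of 83 (29.3%), whose median EZH2 enrichment was 4.19-fold.

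**Figure D5:**
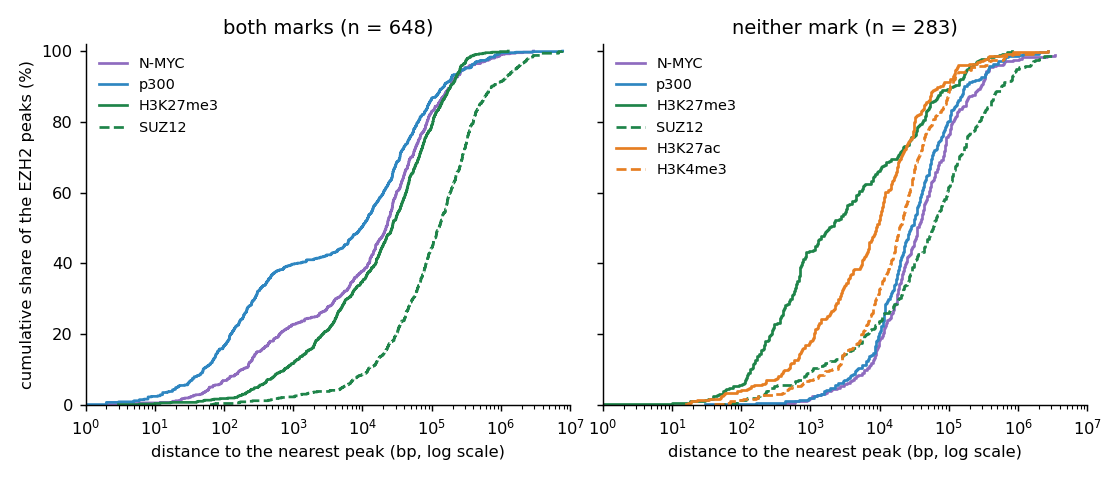
Cumulative share (%) of the selected EZH2 peaks by distance (bp, log scale) to the nearest N-MYC, p300, H3K27me3 and SUZ12 peak and, on the right, also to H3K27ac and H3K4me3, for the 648 peaks with both marks (left) and the 283 with neither (right). With neither mark the H3K27me3 curve lies highest at 2000 bp (50.5%), and with both marks the p300 curve lies highest of the 4 drawn (41.2%).

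The strongest peak without either mark lay on chromosome 13 from 110368496 to 110369123, 11324 bp from the start of Gapt, an adaptor gene of blood cells. It had EZH2 at 9.51-fold over 628 bp, with H3K27me3 2995 bp away and H3K27ac 25303 bp away. The second, 17801 bp from Epm2aip1, was at 8.11-fold with H3K27me3 1994 bp away. The nearest starts to the next 2 intergenic peaks, Npvf, a neuropeptide gene, and Drd5, a dopamine receptor gene, were 282680 and 11273 bp away. These peaks had 6.73 and 6.50-fold, with H3K27me3 at 513 and 5720 bp. A peak in the body of Snx29, a sorting nexin gene, was at 6.66-fold with H3K27ac 754 bp and H3K27me3 139732 bp away. The peak at 2610524H06Rik, at 6.44-fold, lay 85 bp from H3K4me3 and 161 bp from p300.

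The 36 peaks with H3K4me3 alone had H3K27me3 718 bp away at the median and within 2000 bp of 22 (61.1%). SUZ12 lay within 2000 bp of 9 of the 36, and N-MYC or p300 of 13. Zfp30 was at 5.63-fold with H3K27me3 at 125 bp. The peaks whose nearest starts were Plac1 and Tafa3, 57234 and 24661 bp away, had 5.03 and 4.85-fold, with H3K27me3 at 2 and 151 bp. Nt5e, which encodes CD73, was at 4.85-fold, 264 bp from H3K27me3 and 25 bp from H3K27ac, and the peak in Dixdc1 was at 4.76-fold, 1138 bp from H3K27me3.

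The 38 peaks with H3K27ac alone were mostly away from starts, with H3K4me3 16801.5 bp away at the median and p300 within 2000 bp of 26.3%. The strongest was in the body of Iffo2 at 5.35-fold. A peak 8545 bp from Cebpb, a leucine zipper transcription factor gene, was at 5.10-fold with p300 at 8106 bp. The peak in the body of Stat3, a transcription factor of cytokine signalling, was at 5.01-fold with H3K27ac at 16.7-fold and p300 at 830 bp. The others named by the same rule were a peak 105083 bp from the start of Gng4 at 5.03-fold, Cfap77 at 5.01-fold and a site on chromosome 18 at 4.99-fold.

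By chromosome, selected peaks were 3.81 to 6.67% of the EZH2 peaks on each autosome and 37 of 239 (15.5%) on X. Among Polycomb-free EZH2 peaks they were 37.4% on X (interval 28.5 to 47.2%) and 11.3% on the autosomes. On X, 36 of the 37 had both marks and 22 were isolated peaks. The lists themselves were thinner there: of Polycomb-free H3K4me3 peaks, 129 of 431 on X and 8632 of 14386 on the autosomes had p300, 126 and 6758 had N-MYC, and 82 and 6505 had EZH2, or 29.9, 29.2 and 19.03% on X. Median H3K4me3 enrichment was 15.97-fold on X and 15.4-fold on the autosomes. The part of these lower shares in the count of selected peaks on X was not tested.

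After Kdm5c, the strongest at a gene start on X was Fmr1, which encodes an RNA-binding regulator of translation, at 6.62-fold. Its H3K4me3 peak had 35.9-fold and its H3K27ac 18.8-fold, and the nearest p300 and N-MYC peaks lay 2876324 and 2876547 bp away. Measured to the nearer of the 2 lists, this was the farthest of any selected peak with a mark. Thoc2, an mRNA export gene, had 2 selected peaks at 6.03 and 5.43-fold, and p300 was 236729 bp from the first. Elf4 and Zxdb had 6.03-fold each, and Ube2a and Ammecr1 5.69-fold each. The other peaks farthest from N-MYC or p300, 4059 bp from Slitrk5 and 125383 bp from Gnat3, had neither mark, at 3.77 and 4.47-fold. All 3 EZH2 peaks on Y were selected, at 2.09 to 3.51-fold with neither mark, and the N-MYC and SUZ12 lists had no peak on Y.

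At the edge of the rule, 178 selected peaks (17.7%) lay within 100 bp of an excluded peak and 425 (42.3%) within 500 bp. The 27 with a gap of at most 10 bp had a median EZH2 enrichment of 4.24-fold, and the 24 EZH2 peaks kept out by an overlap of at most 10 bp had 4.09-fold.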

How the data were processed

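Each immunoprecipitation had 1 deposited peak list without a header, and the 2 inputs had none and were not used here. The submitters' processing notes name FastQC, Bowtie2, SAMtools, MACS2 and deepTools, without versions, and the builds mm10 and GRCm38. The fold enrichment in the deposited lists is the authors' linear ratio over background. Peak p-values and q-values were deposited by the authors as −log10 values, with a lowest −log10 q of 2.00 to 2.08 over the lists. The whole-number score that the authors deposited repeats the q-value and was not used. Depth, peak-calling settings and pooling are not given in the sources used here. Absence of a peak is absence of a call.

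From these files, overlaps of at least 1 bp, distances between nearest edges, medians and 95% Wilson intervals were computed in Python 3.11.15 with pandas 2.3.3 and checked on simulated data. Where several H3K4me3 or H3K27ac peaks overlapped, the one of highest fold enrichment was used. Gene starts, gene bodies and promoter letters came from RefSeq, assembly GRCm38.p6, with 21262 gene starts of all types and 17491 protein-coding genes with a start. The promoter table had no start on chromosome 18. Exons and introns were not used here. The named peaks were the 6 of highest EZH2 enrichment in each of the 4 mark combinations, the 4 highest per gene list, and the 3 closest to and 3 farthest from N-MYC or p300. The other genes on X and the genes for printed promoters were chosen after their values were seen. The peaks and gene lists were chosen with earlier results of these data known. No test was run, since each antibody had 1 library. Of the peaks named by this rule, 2 are not reported here.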

Additional observations from a re-analysis of the deposited data

How the results depend on the processing

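Nothing was tested, so results are compared by value. Of 67 values under alternatives, 17 stayed within 1.5 times the count or inside the 95% interval reported, and 50 moved outside it. In every setting that changed the peaks, H3K4me3 and H3K27ac each overlapped over 60% of them and the median width stayed under 400 bp.

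With overlap counted only at 50% or more of the shorter peak, 1690 EZH2 peaks were selected: 75.6% had H3K4me3, 73.4% H3K27ac, 71.2% both and 22.2% neither. Their median width was 327.5 bp and EZH2 enrichment 4.44-fold, 56.8% were near a start, and 69.95% of those with H3K4me3 had N-MYC or p300 on it. With the EZH2 summit required to lie inside the other peak, 2062 were selected, with 80.1, 77.7, 76.1 and 18.3% in the same order, 386 bp, 4.64-fold, 59.9 and 76.4%. Both settings admit EZH2 peaks that touch an excluded feature at their edge. With no excluded peak within 500 bp, 580 remained, of which 60.3% had H3K4me3, 63.8% H3K27ac, 57.9% both and 33.8% neither, at 318.5 bp; 39.4% were near a start, and 9.14% of those with H3K4me3 had N-MYC or p300 elsewhere on the H3K4me3 peak. Within 2000 bp, 419 remained, with 64.2% H3K4me3, 331 bp and 4.44-fold.

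With EZH2 peaks of −log10 q of at least 5, 605 were selected, of which 72.1% had H3K4me3, 72.2% H3K27ac, 69.6% both and 25.3% neither. Their medians were 356 bp and 4.81-fold, 49.6% were near a start, and 39.4% of those with H3K4me3 had N-MYC or p300 elsewhere on the H3K4me3 peak. With the other lists limited in that way, the shares were 74.8, 74.1, 70.999 and 22.1%, the width 317 bp, 51.9% were near a start, and 34.9% of those with H3K4me3 had N-MYC or p300 elsewhere.

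The share near a gene start was 38.5% with a window of 500 bp, 56.0% with 5000 bp and 50.1% with genes of any type. It was 50.8% over either end of protein-coding genes, an alternative chosen after seeing the data, as was measuring from the summit, which gave 44.3%. The causes of these differences were not tested. No paired analysis was possible because each antibody had 1 library and no result comes from a test. Read depth is not stated, so a weak N-MYC or p300 site cannot be told from its absence.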
